A study of Mus musculus with 20 samples.

Results

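Chemokines and their receptors were followed through the livers of mice given benzo[a]pyrene (BaP), a polycyclic aromatic hydrocarbon that liver enzymes turn into a DNA-binding mutagen. The members were every probe whose transcript accession led, through RefSeq, to a mouse symbol of the Ccl, Cxcl, Ccr or Cxcr series, or to *Cx3cl1*, *Cx3cr1*, *Xcl1* or *Xcr1*, with pseudogenes and antisense genes left out. The rule found 66 probes for 53 genes (34 ligands and 19 receptors) among 41174 probes, and it used no measured value. Of the 58 genes in RefSeq with such a name, 5 had no probe (*Ccl21b*, *Ccl21c*, *Ccl21d*, *Ccl26* and *Ccl27b*). The first 3 of these and *Ccl27b* are near-identical copies of *Ccl21a* and *Ccl27a*, so the signals of the latter pair may include them. RNA came from 20 male Muta™Mouse animals (transgenic mouse strain 40.6), 25 weeks old, 5 per group. Controls received olive oil alone (replicates 1 to 5) and the exposed animals received 25 (replicates 6 to 10), 50 (11 to 15) or 75 mg/kg/day BaP (16 to 20) in it, by oral gavage each day for 28 days, and all were killed 3 days after the last dose. Each liver RNA was hybridized to 1 two-color array with a universal reference RNA pooled from mouse cell lines, and values are log2 ratios of liver over reference. Each animal was measured once, and all carry the *lacZ* transgene of the strain.

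Chemokines are small secreted proteins that bind to tissue matrix and draw in cells bearing a matching G protein-coupled receptor. Inflammatory chemokines such as CCL2 and CXCL1 are induced by injury and bring in monocytes and neutrophils, whereas homeostatic ones such as CXCL12, CXCL13, CCL19 and CCL21 place lymphocytes and stem cells in tissues. In the liver, hepatocytes, resident macrophages (Kupffer cells), sinusoidal endothelium and stellate cells are known sources of ligands, and the receptors are carried mainly by leukocytes. RNA of whole tissue was measured, so fewer cells of a type and less RNA per cell cannot be told apart.

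The arrays lay on 6 slides, and dose was almost wholly tied to the position on the slide, so the effects of dose and position cannot be told apart. Slides 1 to 3 held 1 array of every group, slides 4 and 5 held arrays of 25 and 75 mg/kg, and slide 6 held 2 controls and 2 arrays of 50 mg/kg. Control replicate 4 stood apart: its liver signal was well above background at 67.5% of spots, where the other controls had 51.9 to 54.3%, and 44 member probes were detected on it, against 31 to 40 on the other 19 arrays. A label of the samples names lungs as the source. All 7 hepatocyte markers on the array were detected in every animal, with a mean log2 ratio of 4.74 to 6.03 over the markers, whereas 4 of the 7 lung epithelium markers on the array were present and 0 were detected on all 20 arrays. *Sftpd*, a surfactant protein, was detected on 19 arrays and *Sftpa1* on 16. The log2 fold change of *Sftpd* against control was 1.19 ± 0.25 (SE) at 75 mg/kg (limma adjusted p = 0.0688).

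Detection was judged first, by the mark that the scanner software gives to a spot whose liver signal is well above background. By this mark 27 member probes (21 genes) were detected on all 20 arrays and 17 probes on none (12 genes had no probe detected on any). This was 40.9% and 25.8% of the member probes, against 46.2% and 26.3% of all probes. Ligands were detected more widely than receptors, at 17 of 34 ligand genes and 4 of 19 receptor genes on all arrays, as a description without a test. These receptors included *Cxcr3* and *Cxcr6*, which mark activated T cells and NK cells, and *Xcr1*, a receptor of cross-presenting dendritic cells. *Xcr1* was so by 1 of its probes, and its other probe was marked on 0 arrays. Ligand genes detected on no array were *Ccl1*, *Ccl11*, *Ccl12*, *Ccl20*, *Ccl22*, *Cxcl2*, *Cxcl3*, *Cxcl17* and *Xcl1*, and receptor genes detected on none were *Ccr7*, *Ccr8* and *Cxcr1*. Another 7 probes, for *Ccl8*, *Ccr1*, *Ccr10*, *Ccr4*, *Cxcl15* and *Cxcr2*, were marked on 1 array, in each case a control, and 4 of the 7 were marked only on control replicate 4.

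**Figure D1:**
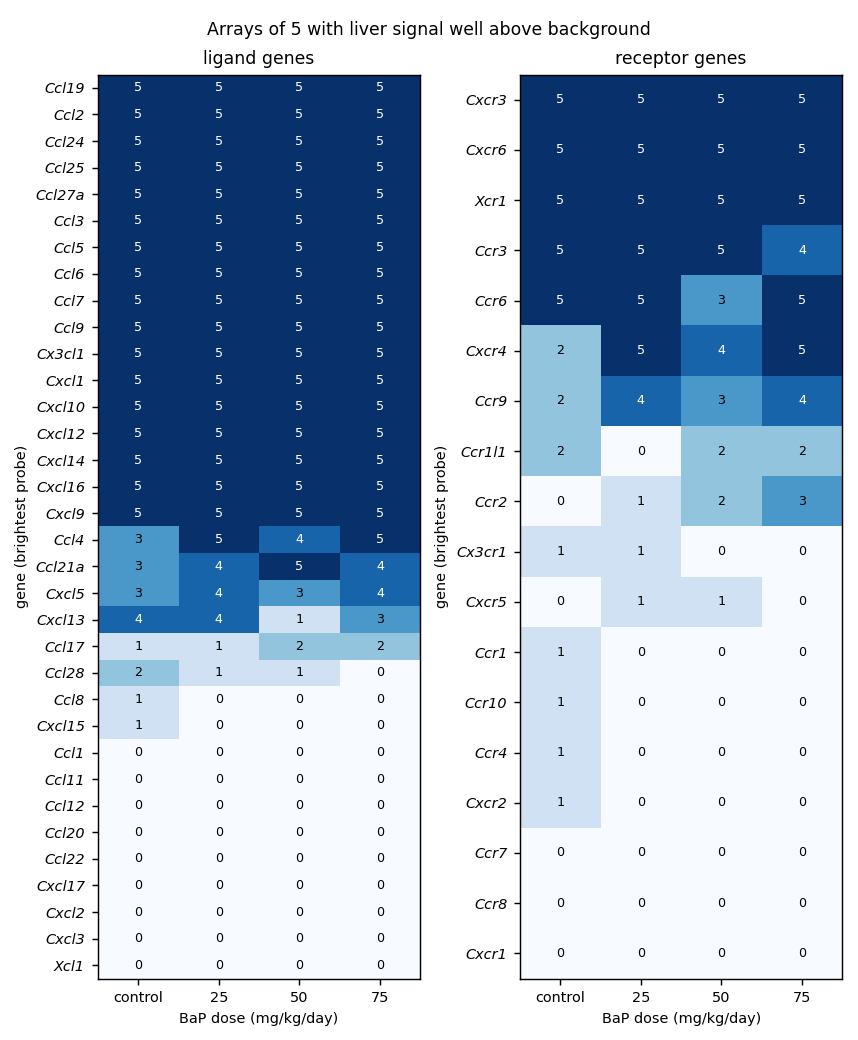
Number of arrays, of 5 in each group, on which the brightest probe of each ligand gene (left) or of 18 receptor genes (right) was well above background in the liver channel. Of the 34 ligand genes, 17 show 5 in every group, whereas 3 of the 18 receptor genes shown do.

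A few receptors were marked on different numbers of arrays across the groups. The brightest *Cxcr4* probe, for the receptor of CXCL12, was detected on 2 of 5 control arrays and on 5, 4 and 5 arrays at 25, 50 and 75 mg/kg. *Ccr2*, the receptor that brings monocytes out of the blood, was detected on 0 control arrays and on 1, 2 and 3 arrays at the rising doses. *Ccr9*, a receptor of gut-homing lymphocytes, was detected on 2 control arrays and on 4, 3 and 4 of the exposed. These counts were not tested, and they do not always run with the ratio, as the values of *Cxcr4* and *Ccr9* show. The mark depends on each array's background: between 55.5 and 61.4% of all spots carried it on the arrays of 25 and 75 mg/kg other than replicate 16 (53%), and the part of this in these counts was not tested.

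Levels in control liver relative to the reference separated the ligands by probe. Each value compares liver with reference for that probe, and says nothing of which transcript is more abundant. Ligands above the reference on all 20 arrays included *Ccl19* (log2 ratio 3.16 ± 0.37 SD, n = 5 controls), *Ccl6* (2.83 ± 0.24), *Ccl27a* (2.63 ± 0.22), *Ccl9* (2.36 ± 0.29), *Cxcl12* (1.25 ± 0.35), *Cxcl16* (1.24 ± 0.15) and *Cxcl9* (1.01 ± 0.53). The other *Cxcl12* probe was below the reference on all 19 arrays that measured it (-1.03 in the controls). *Ccl6* and *Ccl9* encode related macrophage chemokines of rodents. Ligands below the reference on all 20 arrays included *Cx3cl1* (-3.81 ± 0.37), *Cxcl5* (-3.34 ± 0.20), *Ccl2* (-3.24 ± 0.37), *Ccl5* (-3.09 ± 0.16), *Ccl4* (-2.86 ± 0.29), *Ccl7* (-2.63 ± 0.44) and *Ccl3* (-2.57 ± 0.36). The inflammatory monocyte ligands *Ccl2* and *Ccl7* were nonetheless detected in every liver, and *Ccl2*, which had 10 spots, was well above background at 200 of 200. The reference signal itself was well above background on all arrays for 31 of the 45 member probes judged present. It was so on 1 array for *Cxcl9*, and there the ratio is bounded by the background of the reference channel.

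**Figure D2:**
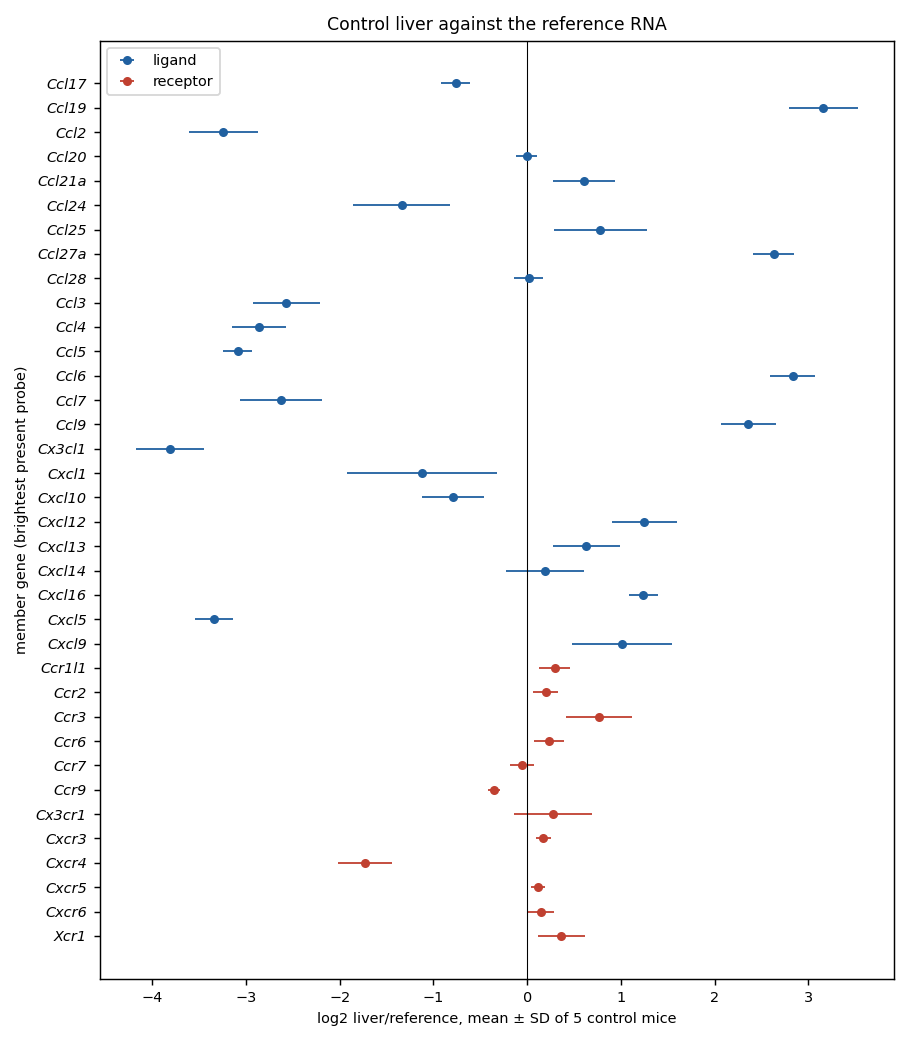
Log2 ratio of liver over reference in the 5 control mice for 36 of the 37 member genes judged present, as mean (point) ± SD (bar), ligands in blue and receptors in red, in alphabetical order. *Ccl19*, *Ccl6*, *Ccl27a* and *Ccl9* lie above 2, whereas *Cx3cl1*, *Cxcl5*, *Ccl2* and *Ccl5* lie below -3.

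Whether BaP changed the chemokine system was asked by contrasting each dose with the control. A probe was tested when its liver signal passed a limit set by negative controls on 4 or more of the 5 arrays of any group, which 45 member probes (37 genes, 24 ligands and 13 receptors) did, and 21 probes did not. A probe that passed through 1 group alone had to be high there, so these 45 are not all members. It was called at an adjusted p under 0.05 by limma and a fold change over 1.5. No member was called at any dose. At 25 and at 50 mg/kg 0 of 45 were called, and 0% of all 27346 tested probes. At 75 mg/kg 0 of 45 were called in either direction, against 0.132% of all tested probes called higher and 0.00366% called lower. The trend with dose called 0 members, against 0.154% of probes rising and 0.00366% falling, and the F test over the 3 doses called 0, against 0.0805%. The smallest adjusted p among members was 0.636 at 25 mg/kg, 0.54 at 50 mg/kg (*Cxcl16*), 0.194 at 75 mg/kg (*Cxcr4*), 0.238 in the trend (*Ccr2*) and 0.259 in the F test (*Cxcl16*), all by limma with Benjamini-Hochberg adjustment over all tested probes.

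Before adjustment, limma gave p under 0.05 for 3 of 45 member probes at 25 mg/kg, 8 at 50 mg/kg and 9 at 75 mg/kg. The background shares of all tested probes were 7.81%, 6.7% and 11.2%, beside 6.67%, 17.8% and 20% of the members. In the trend 7 members and in the F test 6 had an unadjusted p under 0.05 (15.6% against 8.58%, and 13.3% against 8.23%). Probes of a gene share its transcript, and these shares were not tested. The median log2 fold change of the members was -0.025, -0.078 and -0.052 at the rising doses, beside 0.00088, -0.0032 and 0.0025 over all tested probes. Of the 45 member probes 21, 19 and 18 (46.7%, 42.2% and 40%) were higher than control at the rising doses, beside 50.3%, 49.2% and 50.6% of all tested probes. The members varied somewhat more between animals than probes in general, with a median SE of a contrast of 0.151 against 0.135. At 75 mg/kg the 95% interval of the fold change lay within 1.5-fold in both directions for 29 of the 45 probes and within 2-fold for 42. Changes beyond 2-fold, as normalized here, were thus outside the interval for most probes but not for all. These counts include probes near background, such as those of *Ccl20* and *Ccr7*, marked on 0 arrays. A narrow interval there does not bound the change in transcript.

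**Figure D3:**
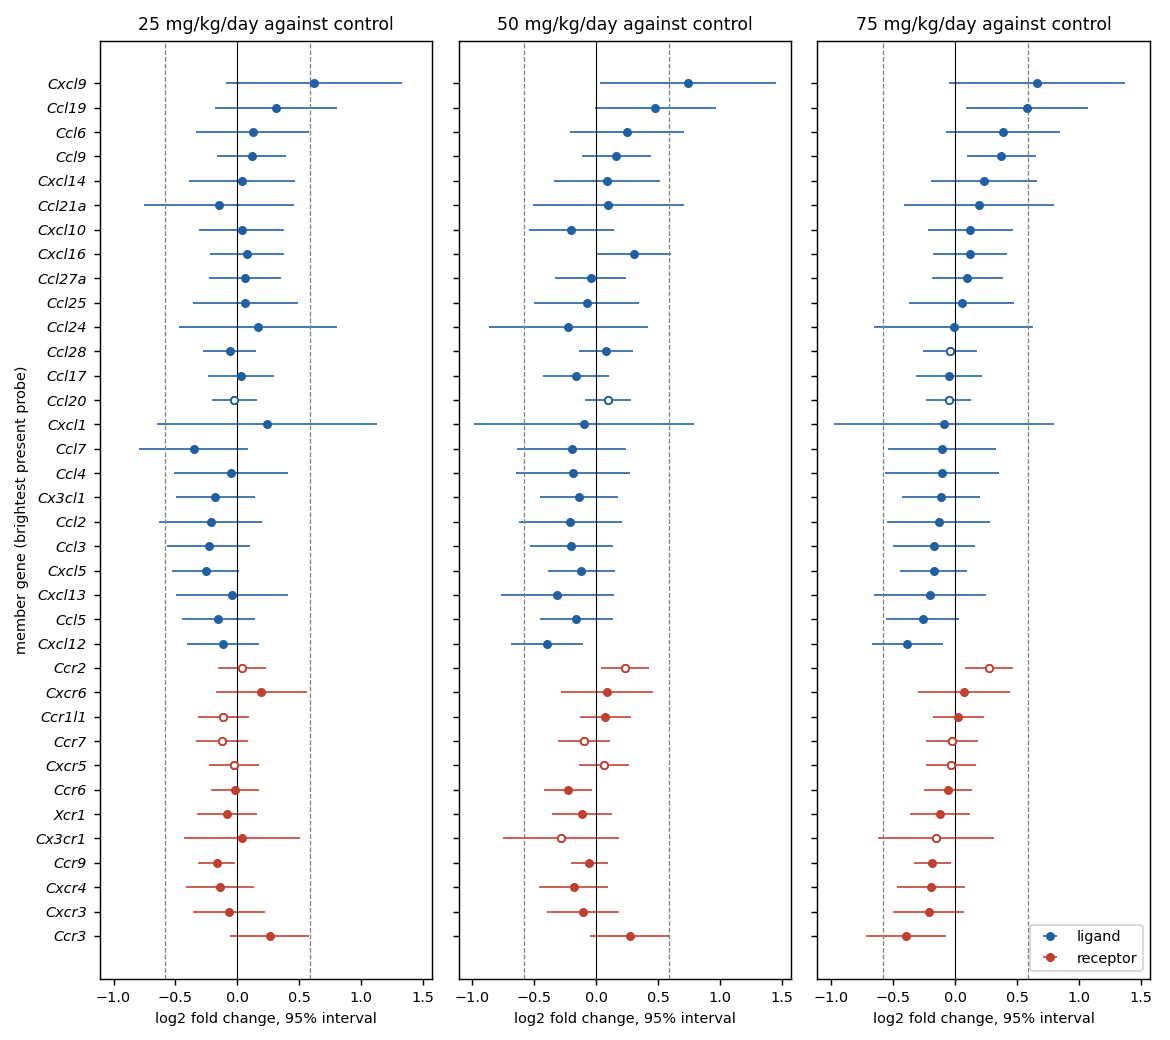
Log2 fold change of each dose against control (points) with its 95% interval (bars) for 36 of the 37 present member genes, ligands in blue and receptors in red, ordered by the change at 75 mg/kg; dashed lines mark 1.5-fold, and open points mark contrasts in which a group had no array well above background. *Cxcl9* has the highest point at each dose (0.62, 0.74 and 0.66).

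The neutrophil-attracting ligands of CXCR2 were sparse in these livers. Of 5 genes, *Cxcl2*, *Cxcl3* and *Cxcl15* were not judged present, and *Cxcl1* and *Cxcl5* were. *Cxcl1*, the main rodent neutrophil attractant, was the most variable member, with a within-group SD of 0.751 against a median of 0.217 over all probes. Its log2 ratios were -1.23, -0.34, -0.78, -2.44 and -0.79 in the controls, -1.41, 0.33, -0.17, -1.15 and -1.98 at 25 mg/kg, -1.03, -0.67, -1.28, -1.78 and -1.34 at 50 mg/kg and -0.60, -2.02, -0.26, -1.64 and -1.52 at 75 mg/kg. The groups overlapped throughout. The log2 fold change at 75 mg/kg was -0.090 ± 0.43 (SE, limma adjusted p = 0.963), with a 95% interval from -0.98 to 0.80 that holds changes of nearly 2-fold either way. *Cxcl5* was at -0.17 ± 0.13 (limma adjusted p = 0.653).

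The interferon-inducible ligands of CXCR3, which draw in activated T cells and NK cells, gave the highest fitted change of any member. The log2 ratio of *Cxcl9* was 1.82, 0.72, 0.39, 1.16 and 0.95 in the controls, 1.60, 0.84, 2.73, 2.02 and 0.96 at 25 mg/kg, 1.17, 1.54, 1.64, 2.74 and 1.67 at 50 mg/kg and 2.02, 1.45, 2.25, 1.21 and 1.41 at 75 mg/kg. Most exposed livers lay above the control mean, but control replicate 1 was as high as many of them, and 2, 1 and 2 exposed livers per dose exceeded every control. The log2 fold changes were 0.62, 0.74 and 0.66 (SE 0.342 each), or 1.54-, 1.67- and 1.58-fold, and did not pass the limma test (adjusted p = 0.665, 0.727 and 0.48). With the liver channel alone they were 0.38, 0.58 and 0.38, and with the processed signals of the scanner software the change at 50 mg/kg was 1.61. Within the slides that held both groups, the difference was positive on 2 of 3 slides at 25 mg/kg, 3 of 4 at 50 mg/kg and 3 of 3 at 75 mg/kg, but it was -0.86 and -0.64 on slide 3 at 25 and 50 mg/kg. *Cxcl10* was at 0.035, -0.20 and 0.12 (limma adjusted p = 0.827 at 75 mg/kg), and the pair are neighbors on chromosome 5.

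Promoters of 3 CXC ligands are given to show how the genes behind these values differ at their starts: *Cxcl1*, the most variable member, *Cxcl9*, with the highest fitted change, and its neighbor *Cxcl10*. The windows run from 250 bases before to 50 bases after the transcription start, 5′ to 3′ on the gene's strand, from RefSeq on build GRCm38.p6, in which 40 of the 53 member genes had a window. Capitals mark matches on either strand to GGG and TTCC with any 3 bases between (letters of an NF-kB site) or GAAA and GAAA with any 2 between (letters of an interferon response element), or on the gene's strand to TATAAA. TTC and GAA with any 3 between (letters of a GAS element) were also searched on both strands. *Cxcl1* is at chr5:90890995-90891294 (plus strand), *Cxcl9* at chr5:92328030-92328329 (minus) and *Cxcl10* at chr5:92348840-92349139 (minus).
*Cxcl1*: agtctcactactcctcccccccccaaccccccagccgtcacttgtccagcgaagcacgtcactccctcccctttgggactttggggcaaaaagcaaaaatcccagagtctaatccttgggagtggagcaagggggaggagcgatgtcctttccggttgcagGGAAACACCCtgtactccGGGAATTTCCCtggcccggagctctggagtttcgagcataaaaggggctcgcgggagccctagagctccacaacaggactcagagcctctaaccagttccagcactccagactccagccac
*Cxcl9*: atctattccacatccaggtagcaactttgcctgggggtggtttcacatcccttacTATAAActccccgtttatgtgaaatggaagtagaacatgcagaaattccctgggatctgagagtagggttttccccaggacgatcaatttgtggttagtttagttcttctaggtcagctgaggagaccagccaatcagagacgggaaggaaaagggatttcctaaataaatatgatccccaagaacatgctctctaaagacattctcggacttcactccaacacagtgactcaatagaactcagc
*Cxcl10*: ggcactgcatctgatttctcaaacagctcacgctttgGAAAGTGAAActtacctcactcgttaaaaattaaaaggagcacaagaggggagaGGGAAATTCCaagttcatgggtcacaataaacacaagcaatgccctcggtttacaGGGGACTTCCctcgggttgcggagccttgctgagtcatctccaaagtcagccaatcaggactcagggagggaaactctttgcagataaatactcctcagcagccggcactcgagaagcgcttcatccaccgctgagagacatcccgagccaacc
The *Cxcl1* window held 3 matches to the NF-kB letters, 2 of which overlap within 1 run, and *Cxcl10* held 2 together with 1 match to the interferon letters. The *Cxcl9* window held 1 TATAAA, at -195 from the start, and none of the other letters. Sites spelled otherwise were not searched for, so lack of a match does not show lack of a site. Of the 44 windows of members (some genes have several), 20.5% held the NF-kB letters, 6.82% the interferon letters, 22.7% TATAAA and 9.09% the GAS letters, beside 5.56%, 3.44%, 8.32% and 8.3% of all 32851 windows. A match is a run of letters and not a shown binding site, and no test was made.

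The monocyte ligands of CCR2 gave no call, and both that were present lay below the control mean at each dose. *Ccl2*, the chief attractant of monocytes, stood at -3.84, -3.18, -2.81, -3.20 and -3.20 in the controls, -3.42, -3.01, -3.58, -3.55 and -3.75 at 25 mg/kg, -3.98, -2.87, -3.31, -3.85 and -3.27 at 50 mg/kg and -3.63, -3.42, -3.39, -3.09 and -3.36 at 75 mg/kg. The groups overlapped, and the lowest value of every group was on slide 3 (replicates 1, 10, 11 and 16). The log2 fold change was -0.22, -0.21 and -0.14 (SE 0.199 at 75 mg/kg, limma adjusted p = 0.844), with an interval from -0.55 to 0.28 at 75 mg/kg. *Ccl7* was at -0.35, -0.20 and -0.11 (limma adjusted p = 0.893 at 75 mg/kg), and its other probe was lower than control at each dose too. *Ccl8* and *Ccl12* were not judged present.

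Of the macrophage inflammatory ligands, most of which bind CCR1, *Ccl3*, *Ccl4* and *Ccl5* were lower than control at each dose and *Ccl6* and *Ccl9* higher, without any passing the test. *Ccl9*, a macrophage chemokine of the CCR1 group, gave the clearest of these differences. Its log2 ratio was 2.09, 2.54, 2.69, 2.44 and 2.02 in the controls, 2.70, 2.35, 2.59, 2.56 and 2.17 at 25 mg/kg, 2.39, 2.36, 2.79, 2.65 and 2.39 at 50 mg/kg and 2.63, 2.89, 2.74, 2.58 and 2.79 at 75 mg/kg. At 75 mg/kg 3 of 5 livers exceeded every control and the lowest of them exceeded 4 of 5 controls. The log2 fold change was 0.12, 0.16 and 0.37 (SE 0.133, limma adjusted p = 0.314 at 75 mg/kg), and the difference was positive on each of the 3 slides that held both groups (0.45, 0.73 and 0.54). *Ccl6* was at 0.12, 0.25 and 0.39 (SE 0.22, limma adjusted p = 0.524). *Ccl5*, a T cell and platelet chemokine, was at -0.16, -0.16 and -0.26 (SE 0.142, limma adjusted p = 0.498).

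Among the remaining CC ligands, *Ccl24*, an eosinophil attractant that binds CCR3, was at -0.013 ± 0.31 (SE) at 75 mg/kg by one probe and at -0.054 ± 0.26 by the other. *Ccl11*, the other CCR3 ligand with a probe, was not judged present. *Ccl17*, a CCR4 ligand of dendritic cells, was at -0.052 ± 0.13, and *Ccl1* and *Ccl22* were not present. The epithelial ligands *Ccl25* and *Ccl27a* were at 0.051 ± 0.20 and 0.097 ± 0.14. *Ccl28* was marked on 2 control arrays and on 0 at 75 mg/kg, and *Ccl20* on none, so no fold is given for either. By the brightest probes, the limma adjusted p at 75 mg/kg was between 0.838 and 0.993 for these genes.

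*Ccl19*, which with CCL21 guides CCR7-bearing dendritic and T cells, had the second highest fitted change at 75 mg/kg. Its log2 ratio was 3.75, 2.73, 3.04, 3.14 and 3.14 in the controls, 2.56, 3.61, 4.26, 3.51 and 3.44 at 25 mg/kg, 3.81, 3.76, 3.62, 3.48 and 3.52 at 50 mg/kg and 3.76, 3.97, 4.18, 3.24 and 3.54 at 75 mg/kg. Control replicate 1 lay above most exposed livers, whereas the other 4 controls lay below every liver of 50 and 75 mg/kg. Against control the log2 change was 0.31, 0.48 and 0.58 (SE 0.236), 1.24-, 1.39- and 1.49-fold, and did not pass the limma test (adjusted p = 0.749, 0.746 and 0.366). The other *Ccl19* probe gave 0.36, 0.50 and 0.59, and the probes correlated at r = 0.958 over the 20 arrays. With the liver channel alone the changes were smaller, at 0.10, 0.41 and 0.38, and by the other probe at 0.089, 0.365 and 0.321. On slide 3, where control replicate 1 lay, the differences were -0.31, 0.059 and 0.0037, whereas on slides 1 and 2 they were between 0.34 and 1.12. *Ccl21a* was at 0.19 ± 0.29 (SE) and *Cxcl13*, which guides B cells, at -0.21 ± 0.22 at 75 mg/kg, with limma adjusted p = 0.85 and 0.767.

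*Cxcl12*, the ligand that holds CXCR4-bearing cells in stromal niches, had the lowest fitted change of any member at 50 mg/kg, and by its other probe at 75 mg/kg. Its log2 ratio by the brightest probe was 1.02, 0.80, 1.48, 1.26 and 1.67 in the controls, 1.03, 1.27, 1.08, 1.14 and 1.14 at 25 mg/kg, 0.65, 0.99, 0.60, 1.17 and 0.83 at 50 mg/kg and 0.66, 0.84, 1.01, 0.90 and 0.89 at 75 mg/kg. The controls were widely spread, and 2 of 5 livers at 50 mg/kg and 1 of 5 at 75 mg/kg lay below all of them. The log2 fold change was -0.12, -0.40 and -0.39 (SE 0.139), or 0.923-, 0.759- and 0.765-fold, and did not pass the limma test (adjusted p = 0.854, 0.676 and 0.314). Within slides it was lower on each of the 4 slides at 50 mg/kg (-0.50 to -0.34) and each of the 3 at 75 mg/kg (-0.66 to -0.36). The trend, at limma adjusted p = 0.268, was called only when the liver channel was used alone (adjusted p = 0.0154). A probe for another *Cxcl12* transcript accession, missing on 1 array (50 mg/kg, replicate 13), gave -0.12, -0.041 and -0.41 (SE 0.221 at 75 mg/kg, limma adjusted p = 0.498). Across the 19 arrays that measured both, the *Cxcl12* probes correlated at r = 0.253 (permutation p = 0.297, 0.396 adjusted over 16 pairs).

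*Cxcl16*, a membrane-bound ligand of CXCR6 that also takes up oxidized lipoprotein, was higher at 50 mg/kg by both probes. By the probe with the smaller spread, the log2 ratio was 0.74, 0.58, 1.04, 0.93 and 1.01 in the controls, 0.90, 0.82, 0.67, 0.95 and 0.63 at 25 mg/kg, 1.24, 1.45, 1.07, 1.31 and 1.31 at 50 mg/kg and 0.87, 1.14, 1.1, 1.39 and 1.35 at 75 mg/kg. All 5 livers of 50 mg/kg lay above all controls, as they did for 1 of 45 member probes (2.22%) and 0.527% of all tested probes, and 4 of 5 did at 75 mg/kg. The fitted difference from control was -0.065, 0.42 and 0.31 (SE 0.114), 1.34-fold at 50 mg/kg, with limma adjusted p = 0.907, 0.54 and 0.325. By this probe the difference at 50 mg/kg was positive on each of 4 slides (0.31 to 0.51). By the brightest probe it ran from -0.076 on slide 1 to 0.52 on slide 6. The brightest probe of the gene read 1.29, 1.18, 1.0, 1.38 and 1.35 in the controls and 1.41, 1.59, 1.62, 1.78 and 1.30 at 50 mg/kg, with a log2 fold change of 0.30 ± 0.14 (SE, limma adjusted p = 0.736). At 75 mg/kg that probe was at 0.12 ± 0.14 and, with slide as a block, at 0.016, while the dimmer probe was at 0.20 with that block. *Cxcl14*, an epithelial and stromal chemokine, was at 0.24 ± 0.21 at 75 mg/kg (limma adjusted p = 0.707), and *Cxcl17* was not present. *Cx3cl1*, the membrane-bound fractalkine of endothelium, was at -0.11 ± 0.15 (limma adjusted p = 0.823), and *Xcl1* was not present.

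**Figure D4:**
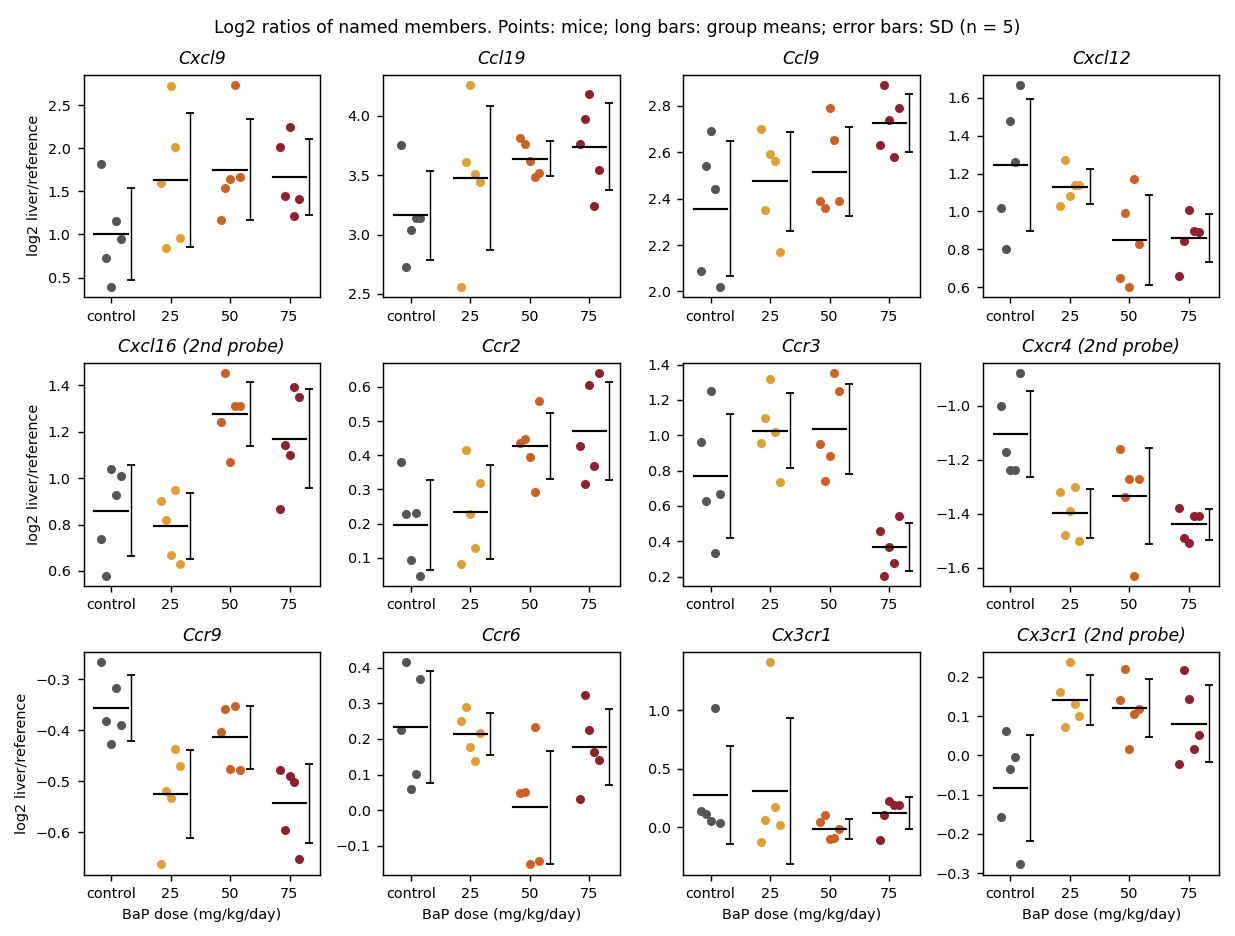
Log2 ratio of liver over reference by dose for the 11 member genes with an unadjusted p under 0.05 in any test, 1 point per mouse, with group means (horizontal bars) and SD (vertical bars, n = 5); each panel has its own axis. The 5 livers of 75 mg/kg lie below 4 of 5 controls for *Ccr3*. All 5 lie below every control for *Ccr9* and for the dimmer probe of *Cxcr4*, as for 0.581% of all tested probes. The change of that *Cxcr4* probe turned sign with the liver channel alone (0.035).

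Of the 11 CC receptor genes, 7 were judged present and 3 of these were higher than control at 75 mg/kg. *Ccr2* had the smallest p of any member in the trend. Its log2 ratio was 0.38, 0.23, 0.10, 0.23 and 0.048 in the controls, 0.082, 0.42, 0.23, 0.13 and 0.32 at 25 mg/kg, 0.44, 0.45, 0.40, 0.29 and 0.56 at 50 mg/kg and 0.43, 0.32, 0.61, 0.37 and 0.64 at 75 mg/kg. The trend did not pass the limma test (adjusted p = 0.238), and 4 of 5 and 3 of 5 livers of the upper doses exceeded every control. The liver signal was well above background on 0 control arrays and the reference signal on 0 of 20 arrays, so the ratio is bounded by the background of both channels and no fold is given. The limma adjusted p was 0.938, 0.707 and 0.283 at the rising doses. With the log2 ratios deposited by the authors in place of those used here, the trend of *Ccr2* was called (limma adjusted p = 0.0473).

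*Ccr3*, the eosinophil receptor for CCL24 and CCL11, had fitted differences of opposite sign at the lower and the highest dose. Its log2 ratio was 0.96, 0.63, 1.25, 0.33 and 0.67 in the controls, 0.96, 1.1, 1.32, 1.02 and 0.74 at 25 mg/kg, 0.95, 0.74, 0.88, 1.35 and 1.25 at 50 mg/kg and 0.46, 0.21, 0.37, 0.28 and 0.55 at 75 mg/kg. At 75 mg/kg 2 of 5 livers lay below all controls, and control replicate 4, at 0.33, lay among the livers of that dose. The log2 fold change against control was 0.26, 0.27 and -0.40 (SE 0.153, limma adjusted p = 0.68, 0.781 and 0.342), and the F test over the doses gave adjusted p = 0.265. The reference signal was well above background on 3 of 20 arrays, and with the liver channel alone the differences were 0.060, 0.10 and -0.42. The differences at 75 mg/kg were negative on each of 3 slides (-0.51 to -0.13), and those at 25 and 50 mg/kg had both signs. A second *Ccr3* probe was not present.

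*Ccr9* and *Ccr6* differed by little. The log2 ratio of *Ccr9* was -0.27, -0.38, -0.43, -0.32 and -0.39 in the controls, -0.66, -0.52, -0.53, -0.44 and -0.47 at 25 mg/kg, -0.40, -0.36, -0.48, -0.35 and -0.48 at 50 mg/kg and -0.48, -0.60, -0.49, -0.50 and -0.65 at 75 mg/kg. All livers of 25 and of 75 mg/kg lay below all controls, as 2 of 45 member probes did at each of these doses (0.662% and 0.581% of all tested probes). The difference was small at -0.17, -0.057 and -0.19 (SE 0.0719, limma adjusted p = 0.636, 0.912 and 0.342), for the member with the smallest spread, although the probe was marked as detected on more exposed than control arrays. It was marked on 13 of 20 arrays in all. With the liver channel alone the differences of *Ccr9* were -0.086, -0.055 and -0.11. *Ccr6*, a receptor of B cells and of IL-17-producing T cells, read 0.23, 0.42, 0.058, 0.10 and 0.37 in the controls and 0.048, 0.051, -0.15, 0.23 and -0.14 at 50 mg/kg, where 4 of 5 livers lay below all controls. Its log2 fold change was -0.019, -0.23 and -0.057 (SE 0.0931, limma adjusted p = 0.971, 0.707 and 0.866). *Ccr1l1* was at 0.074 and 0.023 at 50 and 75 mg/kg (limma adjusted p = 0.959 at 75 mg/kg) and was marked on 0 arrays at 25 mg/kg. *Ccr7* was marked on 0 arrays and has no fold, and *Ccr1*, *Ccr4*, *Ccr8* and *Ccr10* were not present.

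Of the 6 CXC receptor genes, *Cxcr3*, *Cxcr4*, *Cxcr5* and *Cxcr6* were present. *Cxcr4* held the smallest p of any member at 75 mg/kg, by the dimmer of its probes. By that probe the log2 ratio was -1.0, -1.17, -1.24, -1.24 and -0.88 in the controls, -1.32, -1.48, -1.39, -1.30 and -1.50 at 25 mg/kg, -1.16, -1.34, -1.27, -1.63 and -1.27 at 50 mg/kg and -1.38, -1.49, -1.51, -1.41 and -1.41 at 75 mg/kg. All livers of 25 and 75 mg/kg lay below all controls, as they did for 0.662% and 0.581% of all tested probes. On the log2 scale the fold change was -0.29, -0.23 and -0.33 (SE 0.0946), 0.817-, 0.855- and 0.795-fold, with limma adjusted p = 0.636, 0.715 and 0.194. The direction depended on the reference channel: with the liver channel alone the change was 0.017, -0.16 and 0.035, and this probe was marked as detected on 1 control array and on 4, 2 and 4 exposed arrays. The brighter *Cxcr4* probe was at -0.14, -0.18 and -0.20 (SE 0.133, limma adjusted p = 0.603 at 75 mg/kg) and with the liver channel alone at 0.085, 0.067 and 0.053. No direction is therefore given for *Cxcr4*. *Cxcr3* was at -0.22 ± 0.14 and *Cxcr6* at 0.069 ± 0.18 at 75 mg/kg (limma adjusted p = 0.578 and 0.92). *Cxcr5*, a receptor of B cells, was marked on 2 of 20 arrays, and no fold is given at 75 mg/kg. *Cxcr1* and *Cxcr2* were not present.

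*Cx3cr1*, the fractalkine receptor of monocytes and macrophages, was near the detection limit. Its brightest probe read 0.14, 0.12, 0.054, 1.02 and 0.041 in the controls and -0.13, 0.066, 1.41, 0.18 and 0.02 at 25 mg/kg, so that 1 array in each of these groups stood far above the others, and those were also the only arrays on which it was detected. At 50 and 75 mg/kg it lay between -0.11 and 0.23 and was marked on 0 arrays, so no fold is given (limma adjusted p = 0.845 and 0.842). The other probe was marked on 0 arrays. It read -0.16, 0.061, -0.034, -0.0056 and -0.28 in the controls and 0.16, 0.071, 0.24, 0.13 and 0.10 at 25 mg/kg, where all 5 exceeded the controls (0.559% of all tested probes; limma adjusted p = 0.636), but no fold is given for values below background. *Xcr1* was at -0.12 ± 0.12 at 75 mg/kg (limma adjusted p = 0.724), and its other probe was not present.

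Slide and dose group were set side by side as sources of spread. Over the 45 member probes the median share of variance lying between slides was 35.2% and that between dose groups 14%. Over the 27064 tested probes measured on every array these medians were 40.2% and 15.4%. With 6 slides and 4 groups the first share tends to be larger without any effect, and these shares are descriptions. The share between slides was 83.4% for *Ccl25*, 73% for *Ccl7* and 72.3% for *Ccl2*. For *Ccl2* the median SD over its 10 spots on an array was 0.1, against a within-group SD of 0.338 between animals, so the spread between arrays was larger than that within them. The share between groups was above that between slides for 11 of the 45 member probes (24.4%), beside 18.3% of all those probes.

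Pairs of related genes were compared across animals. Of 16 pairs compared (8 of 2 probes of a gene and 8 of genes), *Ccl2* and *Ccl7*, neighbors in the CC cluster that both bind CCR2, correlated at r = 0.727 over the 20 arrays (rho = 0.639, permutation p = 0.00035 and 0.00266, adjusted over the pairs 0.0014 and 0.00851). Without the 2 arrays farthest from the median r was 0.603, and with each slide's mean removed it was 0.493, which did not pass a permutation test within slides (p = 0.0636, 0.202 adjusted over the pairs). *Ccl3* and *Ccl4*, neighboring macrophage inflammatory proteins, correlated at r = 0.67 (rho = 0.624, permutation p = 0.00108 and 0.00397, adjusted 0.00288 and 0.0106), 0.7 without the 2 arrays and 0.696 with slide means removed (permutation p within slides = 0.00727, adjusted 0.0388). The related pairs *Ccl6* with *Ccl9* (r = 0.112) and *Ccl19* with *Ccl21a* (r = 0.146) did not pass (adjusted permutation p = 0.642 and 0.615). *Cxcl9* and *Cxcl10* gave r = 0.444 and rho = 0.284 (permutation p = 0.0493 and 0.223, adjusted 0.0876 and 0.372). Ligands and receptors did not pass the test: *Cxcl12* with *Cxcr4* gave r = 0.344 and *Cxcl16* with *Cxcr6* 0.117 (adjusted permutation p = 0.221 and 0.642). The probes of *Ccl25* correlated at 0.668 over all arrays and at -0.0050 once slide means were removed.

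**Figure D5:**
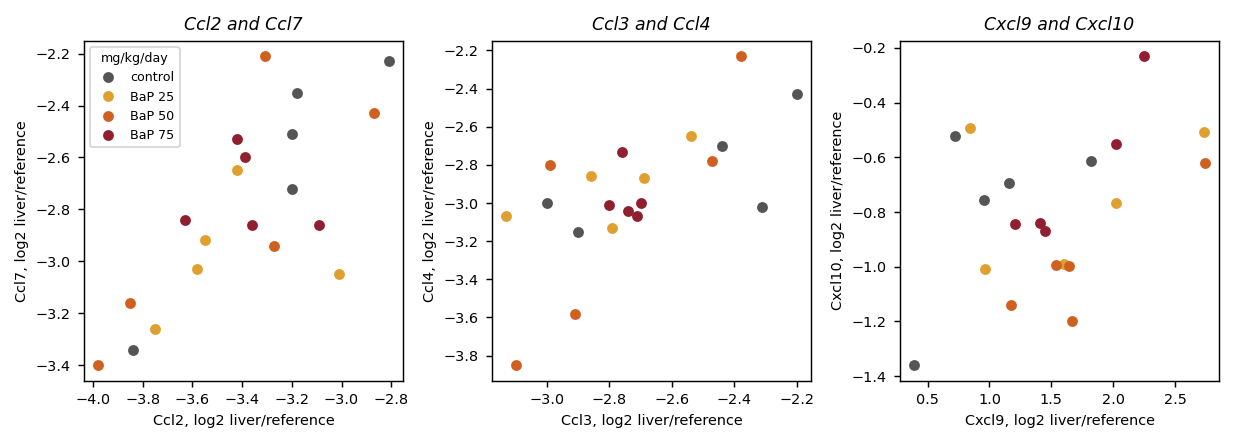
Log2 ratios of liver over reference of 2 ligands against each other, 1 point per mouse (n = 20), colored by dose. *Ccl2* with *Ccl7* (r = 0.727) and *Ccl3* with *Ccl4* (r = 0.67) lie along a diagonal on which the doses are mixed, and *Cxcl9* with *Cxcl10* (r = 0.444) is looser.

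Genes around the chemokine system gave 0 calls as well. Of all tested probes 0% were called at 25 and 50 mg/kg and 0.135% at 75 mg/kg. The shares of all tested probes that were higher than control were 50.3%, 49.2% and 50.6%. Of the atypical receptors, which bind chemokines without signaling through G proteins, and the platelet chemokines, 7 of 7 were present, and 6, 7 and 7 of them were higher than control at the rising doses (median log2 fold change 0.049, 0.18 and 0.23), with 0 called. The smallest p at 75 mg/kg belonged to *Ppbp*, a platelet chemokine (0.33, limma adjusted p = 0.384), *Ackr1*, a scavenger on venules (0.60, adjusted p = 0.465), *Ackr3*, which also binds CXCL12 (0.26, adjusted p = 0.564) and *Pf4* (0.22, adjusted p = 0.59). Of 19 receptor signaling genes 0 were called and 11 were higher at 75 mg/kg (median 0.022). They were led by *Pik3cg*, a kinase activated by receptor G proteins (0.25, limma adjusted p = 0.262), *Dock2*, which drives leukocyte migration (-0.29, adjusted p = 0.333) and *Grk2*, which desensitizes receptors (0.27, adjusted p = 0.382). Of 17 present genes of pathways that induce chemokines, not all of them inducers, 0 were called and 9 were higher (median 0.017). These included *Il1b* (0.62, limma adjusted p = 0.296) and *Il1a* (0.40, adjusted p = 0.412), whereas *Il6* (-0.39, adjusted p = 0.332) and *Tnf* (-0.16, adjusted p = 0.441) lay below control. The study, with its own test and 1 sample left out, reported a significant rise of *Il1b* at 75 mg/kg.

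Markers of the cells that make or receive chemokines were read beside these values. Endothelial markers were higher than control for 9, 10 and 10 of 10 genes at the rising doses (median log2 fold change 0.30, 0.30 and 0.47), with 1 called at 75 mg/kg, *Lyve1*, a sinusoidal endothelial receptor for hyaluronan (2.23 ± 0.40, limma adjusted p = 0.0189). Their mean log2 ratio, which includes *Lyve1*, was 2.51 to 3.17 in the controls and 3.25 to 3.83 at 75 mg/kg, and this separation was not tested. Over all tested probes 50.3%, 49.2% and 50.6% were higher at the rising doses, and 0.135% were called at 75 mg/kg. *Cxcl12*, which endothelium is known to make, did not pass the test at any dose. Of 11 Kupffer cell markers 9, 10 and 9 were higher (medians 0.18, 0.12 and 0.12), with 1 called at 75 mg/kg, *Marco*, a scavenger receptor (2.19 ± 0.30, limma adjusted p = 0.00148). Their mean ratio, which includes *Marco*, was 2.41 to 2.74 in the controls and 2.49 to 3.05 at 75 mg/kg. All 7 hepatocyte markers were higher at each dose without a call (medians 0.33, 0.27 and 0.44), and control replicate 4 was lowest at 4.74. Of the markers of leukocytes that carry the receptors, 0 were called: 5 of 9 neutrophil markers on the array were present (median -0.041 at 75 mg/kg), as were 7 of 9 monocyte and dendritic cell markers (0.15), 6 of 11 T and NK cell markers (-0.060) and 5 of 8 B cell markers (-0.022). Of the 5 present neutrophil markers 2 were higher than control at 75 mg/kg. These were *S100a9*, a calcium-binding protein of neutrophils (1.34 ± 0.37 SE, limma adjusted p = 0.188), and *S100a8*, its partner (0.39, adjusted p = 0.442). *Mpo* (-0.17), *Csf3r* (-0.041) and *Ltf* (-0.079) were lower. The mean ratio over the list, which includes *S100a9*, was 0.40 to 0.84 in the controls and 0.59 to 1.25 at 75 mg/kg. Of the monocyte and dendritic cell markers, 6 of 7 were higher at 75 mg/kg, *Plac8* among them (0.56, limma adjusted p = 0.325). Their mean ratio was -0.78 to -0.60 in the controls and -0.62 to -0.31 at 75 mg/kg. Of stellate cell, bile duct and platelet markers 0 were called (medians 0.19, -0.079 and 0.13). The part of these differences in the members' values was not tested.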

How the data were processed

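Liver RNA (Cyanine 5) and universal mouse reference RNA (Cyanine 3) were hybridized together on 20 two-color arrays, without dye swap, so each ratio carries any dye bias of its probe. The authors deposited median signals and local backgrounds, intensities on a linear scale extracted with Agilent Feature Extraction 10.1.1.1 per the file headers, beside dye-normalized processed intensities. They also deposited LOWESS-normalized log2 ratios of liver over reference. The software's per-spot marks (well above background, saturated, outlier), which are 0 or 1 in the deposited files, gave 0 saturated spots.

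The normexp method (offset 50) corrected median intensities for background, and loess normalized each array. Spots marked as outliers were left out, and spots of a probe were averaged (41174 probes, 23374 with a RefSeq symbol). Presence was set at 3 trimmed SDs above the trimmed mean (5%) of 153 negative control spots, and the 27346 probes whose liver signal was over it on 4 or more of the 5 arrays of any group were tested. One limma model of all 20 arrays contrasted each dose with control, a second took dose as a number, and a moderated F test covered the 3 contrasts. All were two-sided with Benjamini-Hochberg adjustment over all tested probes within a test, and calls needed a fold change over 1.5 and an adjusted p under 0.05 (in the trend and the F test, the adjusted p alone). The study's MAANOVA test was not run. The study left out 1 sample without saying which, so every one of the 20 was kept. Precision is limited by the number of arrays, each of 1 liver. Correlations used 100000 permutations. No fold is given in the text where a group had no array well above background.

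The labels of the samples give 25 mg/kg for the lowest dose and the description of the series 24, and 25 was used. One label gives lungs and another liver, and liver was used. Where a gene had more than 1 present probe, the brightest stands for it, and others are given where they differ. Values per array are given for members with an unadjusted p under 0.05 in any of the tests or a call under any alternative, and for *Cxcl1* and *Ccl2*, which were added after their values were seen. Other members are given by role, with examples, and genes of other lists where called or among the smallest p at 75 mg/kg. Promoter windows came from RefSeq (GRCm38.p6). One member gene is not reported here and stays in the counts. The members and gene lists were chosen with earlier results of these data known. R 4.3.3, limma 3.58.1, statmod 1.5.0, the data.table package (1.17.8), Python 3.11.15, pandas 2.3.3 and matplotlib 3.10.9 were used. Other background corrections, ratios, filters, blocks for slide and each array left out were tried as alternatives.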

Additional observations from a re-analysis of the deposited data

Results flagged for a closer look

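Single arrays stood apart from the rest of their group in 3 cases among the named members. For the brightest *Cx3cr1* probe, control replicate 4 was at 1.02 against 0.041 to 0.14 in the other controls, and replicate 8 of 25 mg/kg was at 1.41 against -0.13 to 0.18. For the brightest *Cxcr4* probe, replicate 14 of 50 mg/kg was at -2.17 against -1.88 to -1.80. In each case the gap to the nearest animal exceeded the 95% limit of Dixon's test. Over all 45 present member probes, 9 of 180 groups (5%) passed that limit, and chance gives about 1 in 20.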

How the results depend on the processing

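The count of 0 called members at 25, 50 and 75 mg/kg and in the F test held under every alternative run. Apart from arrays left out, the smallest member adjusted p by limma ranged from 0.355 to 0.919 at 25 mg/kg, 0.184 to 0.899 at 50 mg/kg, 0.0649 to 0.409 at 75 mg/kg and 0.0639 to 0.293 in the F test. The trend called 1 member (*Ccr2*, adjusted p = 0.0473) with the log2 ratios as deposited and 1 (*Cxcl12*, adjusted p = 0.0154) with the liver channel alone, against 0 otherwise; the cause was not tested. Leaving out each array in turn gave 0 calls in all 5 tests (range 0 to 0), with a smallest adjusted p of 0.147 to 0.492 at 75 mg/kg and 0.139 to 0.418 in the trend. With the negative control limit in place of the scanner mark, 5 member probes in place of 17 were detected on no array, and 33 in place of 27 on all. The dimmer *Cxcr4* probe changed sign at 25 and 75 mg/kg with the processed signals (0.10 and 0.041) and with the liver channel alone (0.017 and 0.035), and the cause was not tested. The other fold changes of members with an unadjusted p under 0.05 kept their sign and their side of the threshold, in 599 refitted values, but not their size. With the processed signals the fitted difference of *Cxcl9* was 1.61 at 50 mg/kg (0.74 as fitted here). That of *Ccr2* was also larger with them at 50 and 75 mg/kg, but it lay near background and no fold is given. The cause was not tested in either case. The mean of both *Cxcl12* probes was at -0.052 at 50 mg/kg (-0.40 by the brightest), where replicate 13 lacks the probe of lower ratio, which raises its mean. Differences and permutations within slides were added after the data were seen. No paired analysis was possible because the replicate numbers do not repeat across groups; slide was used as a block instead and changed no call. Members below background, including *Cxcl2*, *Cxcl3* and *Ccl20*, have no measured level here, and the contrasts bear on changes that outlast dosing by 3 days.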
